A study of Mus musculus with 12 samples.

Results

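Preadipocyte and stromal progenitor markers are genes used to sort or recognise the cells that give rise to fat cells. The set was fixed by name and held 9 genes, Pdgfra, Pdgfrb, Thy1, Cd34, Ly6a, Dpp4, Pi16, Cd24a and Zfp423. Of these, 8 were measured by a probe set that named that gene alone, out of 19938 genes in all. Each of the 8 had 1 such probe set. The symbol Ly6a stood on none of the probe sets used, so Ly6a (Sca-1) was not analysed here.

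Total RNA of the mouse was read on 12 Affymetrix arrays in 4 groups of 3, described as biological replicates. The first 3 groups were adipocytes made in culture from mouse embryonic stem cells (ES), from primary embryonic fibroblasts of the mouse (PMEF) and from 3T3-L1 cells. 3T3-L1 is an immortal clonal line of mouse embryo fibroblasts, so this group speaks for 1 clone. The fourth group was eWAT, epididymal white adipose tissue, from healthy wild-type mice. Strain, age, differentiation agents and days in culture are not stated in the labels. Whether replicates within a culture model were separate differentiations is not stated beyond the word biological, so p-values cover the spread between these arrays.

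Fat tissue is a mixture. Beside adipocytes it holds a stromal vascular fraction of progenitors, fibroblasts, vessel cells and immune cells. In mouse fat, progenitors carry the receptor PDGFRA, and those along vessels carry PDGFRB. Cells of the connective tissue sheet around fat carry DPP4 and PI16 and can give rise to committed preadipocytes marked by ICAM1. When a precursor becomes an adipocyte it loses most of these surface markers, while the transcription factor ZFP423 acts earlier, in commitment. None of the markers belongs to one cell type alone. Cd34 is also made by vessel lining, Thy1 and Dpp4 by T cells, and Cd24a by B cells, granulocytes and epithelia. In bulk RNA, fewer cells of a type and less RNA per cell cannot be told apart.

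Values are log2 intensities, so 1 unit is a 2-fold difference. A gene was called at a Benjamini-Hochberg adjusted p under 0.05 in a limma fit of all genes and arrays. Medians over genes lay between 6.11 and 6.12 in the 3T3-L1 arrays and between 6.31 and 6.35 in the others. Across genes, which are not independent replicates, arrays of 1 group correlated at 0.992 to 0.997 and arrays of different groups at 0.899 to 0.965 (Pearson's r). As a guide to background, the 95th percentile of 1194 olfactory and vomeronasal receptor genes was 5.10 in ES, 5.25 in PMEF, 5.16 in 3T3-L1 and 5.28 in eWAT arrays. The labels' cell identity was checked on adipocyte genes. Of 9 such genes, 9 lay above background in ES, PMEF and eWAT and 8 in 3T3-L1, where Lep was under it. Their levels were not equal. Against eWAT, 2 were called higher and 4 lower in ES, 7 lower in PMEF and 6 lower in 3T3-L1. The medians were -0.17, -0.52 and -0.95, and Cebpa was 2.87 ± 0.11 lower in 3T3-L1.

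The 2 receptors for platelet-derived growth factor were highest in PMEF adipocytes and lowest in 3T3-L1 adipocytes. Pdgfra, the receptor that marks fibroblasts and fat progenitors, read 9.19, 9.52 and 9.26 in ES, 10.97, 10.67 and 11.05 in PMEF, 8.48, 8.33 and 8.29 in 3T3-L1, and 8.97, 9.34 and 9.34 in eWAT arrays. The PMEF arrays stood above all others and the 3T3-L1 arrays below all others, while ES and eWAT arrays overlapped. Against eWAT, Pdgfra rose by 1.68 ± 0.13 in PMEF (SE, n = 3 per group, limma adjusted p = 1.19e-07) and fell by 0.85 ± 0.13 in 3T3-L1 adipocytes (limma adjusted p = 5.84e-05). In ES adipocytes it was at 0.11 ± 0.13 and did not pass (limma adjusted p = 0.523), with a 95% interval from -0.17 to 0.38. Between models it was 2.53 ± 0.13 higher in PMEF than in 3T3-L1, 0.96 ± 0.13 higher in ES than in 3T3-L1, and at -1.57 ± 0.13 in ES against PMEF adipocytes. All 3 of these passed the test.

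Pdgfrb, the receptor of pericytes and of progenitors beside vessels, read 9.51, 9.63 and 9.51 in ES, 10.93, 10.91 and 10.87 in PMEF, 7.87, 7.86 and 7.96 in 3T3-L1, and 9.85, 9.80 and 9.69 in eWAT arrays. No 2 groups overlapped. It rose by 1.12 ± 0.07 in PMEF and fell by 1.88 ± 0.07 in 3T3-L1 against eWAT (limma adjusted p = 1.45e-08 and 5.18e-11). The difference of ES from eWAT was small, at -0.23 ± 0.07 (limma adjusted p = 0.0142). That call was lost without ES array 1 (adjusted p = 0.0566) or 3 (0.0543), and with arrays centred on the reference genes (0.0822). Pdgfrb was 3.01 ± 0.07 higher in PMEF than in 3T3-L1 and 1.66 ± 0.07 higher in ES than in 3T3-L1, and at -1.35 ± 0.07 in ES against PMEF adipocytes, and all 3 differences passed.

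The ligands of these receptors moved both ways. Of 4 ligand genes, 4 fell in ES adipocytes against eWAT, 2 rose and 2 fell in PMEF, and 1 rose and 3 fell in 3T3-L1. Pdgfb, which vessel lining makes to recruit pericytes, averaged 5.44 in ES, 5.57 in PMEF and 5.46 in 3T3-L1 adipocytes, against 7.66 in eWAT, and fell by 2.22 ± 0.10, 2.09 ± 0.10 and 2.19 ± 0.10. Its culture means were close to the background level, so these sizes are rough. Pdgfd, the other ligand of PDGFRB, averaged 6.77 in ES, 8.86 in PMEF, 4.04 in 3T3-L1 and 7.87 in eWAT. It fell by 1.09 ± 0.09 in ES and rose by 0.996 ± 0.09 in PMEF adipocytes, and in 3T3-L1, where it also passed as lower, it lay under the background level.

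Thy1, the small surface glycoprotein CD90 of fibroblasts and mesenchymal cells, set PMEF adipocytes apart. It read 8.75, 8.85 and 8.81 in ES, 11.74, 11.79 and 11.82 in PMEF, 7.71, 7.75 and 7.76 in 3T3-L1, and 8.53, 8.55 and 8.48 in eWAT arrays. No 2 groups overlapped. Thy1 was 9.6-fold higher in PMEF adipocytes than in eWAT, a log2 rise of 3.26 ± 0.06 (limma adjusted p = 2.48e-13). In ES adipocytes it rose by 0.28 ± 0.06 and in 3T3-L1 it fell by 0.78 ± 0.06 (limma adjusted p = 0.00156 and 1.06e-07). Between models it was 4.05 ± 0.06 higher in PMEF and 1.07 ± 0.06 higher in ES than in 3T3-L1, and at -2.98 ± 0.06 in ES against PMEF adipocytes, and these passed too.

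Cd34, a sialomucin of progenitors and vessel lining, had the widest span of the markers between group means, at least 5.33 log2 units with its lowest mean set to the background level. It read 8.41, 8.51 and 8.45 in ES, 10.40, 10.55 and 10.54 in PMEF, 4.86, 4.89 and 5.02 in 3T3-L1, and 10.12, 10.50 and 10.42 in eWAT arrays. In 3T3-L1 adipocytes it lay under the background level in every array, and PMEF and eWAT arrays overlapped. Because 1 side was at background, the 3T3-L1 differences are given as bounds against that level. The p-values beside them are of the measured differences, and the bounds were not tested. Cd34 was at least 36.3-fold lower in 3T3-L1 adipocytes than in eWAT (limma adjusted p = 4.54e-14). It was at least 40.4-fold higher in PMEF than in 3T3-L1 (5.97e-14) and at least 9.82-fold higher in ES than in 3T3-L1 (5.91e-12). In ES adipocytes it fell by 1.89 ± 0.09 against eWAT, and was at -2.04 ± 0.09 against PMEF (limma adjusted p = 2.25e-09 and 2.37e-09). PMEF adipocytes were at 0.15 ± 0.09 against eWAT and did not pass (limma adjusted p = 0.211), with a 95% interval from -0.05 to 0.36.

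Markers of vessel lining were measured beside Cd34. Of 11 endothelial genes, 10 fell and none rose in PMEF adipocytes, with a median of -3.03 against 0.05 over all genes, and Cdh5, the cadherin of vessel junctions, averaged 5.55 in PMEF against 11.04 in eWAT. The summed level of the 11 genes was 9.29 to 9.41 in ES, 9.97 to 10.00 in PMEF, 8.82 to 8.91 in 3T3-L1 and 12.77 to 13.05 in eWAT (log2 of the summed intensity). Above background were 8, 7, 8 and 11 of these genes in the same order. The part of vessel lining in the Cd34 level of eWAT was not tested.

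**Figure D1:**
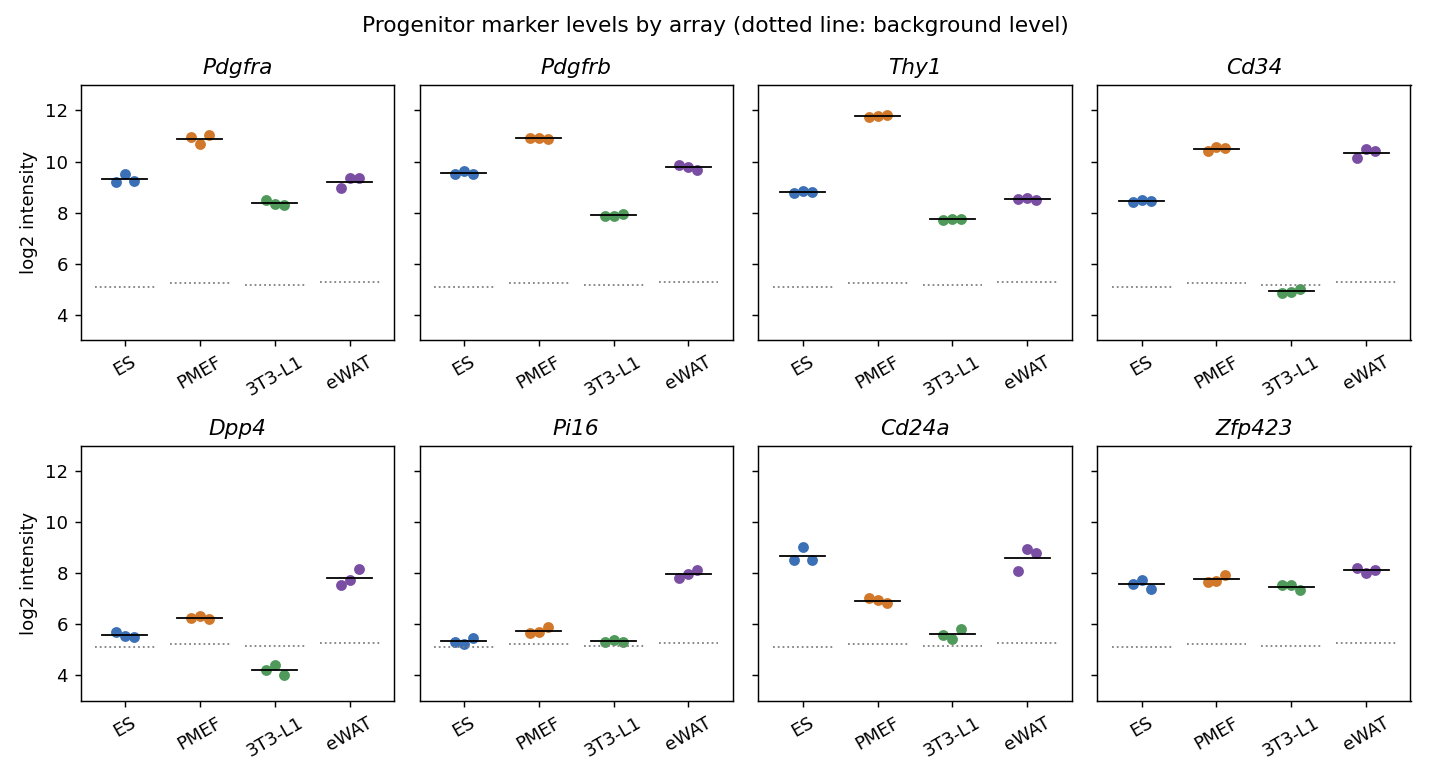
Log2 intensity (vertical axis) of the 8 measured markers in ES, PMEF and 3T3-L1 adipocytes and in eWAT, with 1 point for each array, a black bar at the group mean and a dotted line at the background level of the group. Cd34 and Dpp4 lie under the dotted line in 3T3-L1, and Pi16 stands clear of it in eWAT alone.

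Dpp4 and Pi16, the markers of progenitors in the fibrous sheet of mouse fat, were both highest in tissue. Dpp4, a surface peptidase also called CD26, read 5.72, 5.55 and 5.51 in ES, 6.26, 6.34 and 6.20 in PMEF, 4.21, 4.42 and 4.02 in 3T3-L1, and 7.54, 7.73 and 8.18 in eWAT arrays. No 2 groups overlapped, the 3T3-L1 mean was under the background level, and the ES mean was 0.50 above it, so sizes in ES are rough. Against eWAT, Dpp4 fell by 2.22 ± 0.14 in ES and by 1.55 ± 0.14 in PMEF adipocytes (limma adjusted p = 2.53e-08 and 8.15e-07), and was at least 6.29-fold lower in 3T3-L1 (1.07e-10). Between models it was at least 2.15-fold higher in PMEF and at least 1.35-fold higher in ES than in 3T3-L1, and at -0.67 ± 0.14 in ES against PMEF adipocytes (limma adjusted p = 3.59e-08, 3.07e-06 and 0.00162). As for Cd34, p-values beside bounds are of the measured differences.

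Pi16, a secreted or membrane-tethered protein of the CAP family, read 5.30, 5.25 and 5.48 in ES, 5.66, 5.69 and 5.90 in PMEF, 5.32, 5.41 and 5.31 in 3T3-L1, and 7.84, 7.98 and 8.12 in eWAT arrays. Every culture array lay below every eWAT array. The means of the cultures were 0.18 to 0.50 above the background level, so the sizes of the differences are rough. Pi16 fell by 2.63 ± 0.09 in ES, by 2.23 ± 0.09 in PMEF and by 2.64 ± 0.09 in 3T3-L1 against eWAT (limma adjusted p = 8.87e-11, 3.27e-10 and 3.86e-11). ES and 3T3-L1 arrays overlapped, with a difference of 0.003 ± 0.09 (adjusted p = 0.986, 95% interval from -0.20 to 0.21). That difference changed sign under quantile normalization and under centring on array medians, without passing, and passed with arrays centred on the reference genes (0.45, adjusted p = 0.00141). Pi16 was 0.41 ± 0.09 higher in PMEF than in 3T3-L1 (limma adjusted p = 0.00233), a call lost when arrays were quantile normalized (0.0526) or centred on their medians (0.101). In ES it was at -0.40 ± 0.09 against PMEF adipocytes (limma adjusted p = 0.00321).

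Other genes of these interstitial progenitors were also more often lower in the cultures. Of 13 measured genes, 10 fell and 1 rose in ES, 7 fell and 3 rose in PMEF, and 13 fell in 3T3-L1 adipocytes against eWAT. Their medians were -1.15, -0.58 and -1.68, against 0.04, 0.05 and 0.05 over all genes, and the last was -1.58 with means under background set to that level. Efhd1 averaged 5.08 in ES, 4.93 in PMEF and 4.90 in 3T3-L1, against 8.87 in eWAT, and was called lower in each model, where its means lay under the background level. Pcolce2, which helps to process procollagen, fell by 4.07 ± 0.13 in ES and by 2.47 ± 0.13 in PMEF adipocytes. The complement regulator Cd55 averaged 3.46 in 3T3-L1, under background there, and 8.47 in eWAT. Sema3c, a secreted semaphorin, went the other way and rose by 1.46 ± 0.08 in PMEF adipocytes and to 9.43 in ES, against 8.42 in eWAT.

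The start regions of 4 of these markers are shown for Pdgfra, highest in PMEF, for Cd34, which spanned most, and for Dpp4 and Pi16, highest in eWAT. They are RefSeq sequences of build GRCm38.p6, each 300 bases long, most of which lie before a listed transcript start. RefSeq's table held such a region for 5 of the 9 markers. Capitals mark matches to the motifs, which were searched on both strands. One was TATAAA, the core promoter element known by its first letters. A further motif was CCAAT, a common upstream element. GGGCGG is known as the GC box. CANNTG is the E-box of helix-loop-helix factors. No 2 matches overlap.
Pdgfra, chr5:75152001-75152300, plus strand: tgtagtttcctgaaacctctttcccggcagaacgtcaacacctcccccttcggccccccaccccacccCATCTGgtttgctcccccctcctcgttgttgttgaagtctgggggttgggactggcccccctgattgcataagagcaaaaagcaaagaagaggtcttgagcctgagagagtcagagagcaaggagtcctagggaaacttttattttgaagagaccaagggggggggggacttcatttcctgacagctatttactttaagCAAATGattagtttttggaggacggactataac
Cd34, chr1:194938571-194938870, plus strand: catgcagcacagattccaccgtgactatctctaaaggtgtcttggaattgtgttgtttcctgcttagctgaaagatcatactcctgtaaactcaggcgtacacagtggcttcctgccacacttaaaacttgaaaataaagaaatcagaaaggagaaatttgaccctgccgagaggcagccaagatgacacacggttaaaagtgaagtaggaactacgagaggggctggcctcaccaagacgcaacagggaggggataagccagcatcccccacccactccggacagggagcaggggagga
Dpp4, chr2:62412182-62412481, minus strand: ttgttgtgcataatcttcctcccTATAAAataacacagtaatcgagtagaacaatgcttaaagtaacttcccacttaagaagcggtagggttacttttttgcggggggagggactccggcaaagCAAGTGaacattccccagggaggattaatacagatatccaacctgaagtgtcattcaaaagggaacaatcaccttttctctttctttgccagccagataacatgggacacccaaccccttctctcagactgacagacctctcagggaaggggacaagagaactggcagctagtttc
Pi16, chr17:29318632-29318931, plus strand: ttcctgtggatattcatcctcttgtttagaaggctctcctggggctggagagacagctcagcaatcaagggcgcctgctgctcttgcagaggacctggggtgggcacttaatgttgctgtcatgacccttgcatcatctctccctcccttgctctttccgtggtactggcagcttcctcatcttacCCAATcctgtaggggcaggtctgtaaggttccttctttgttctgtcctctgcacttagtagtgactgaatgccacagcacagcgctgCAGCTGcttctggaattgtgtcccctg

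The Pdgfra region held 2 E-boxes and no other motif, and the Cd34 region held none of the 4. The Dpp4 region held 1 TATA box match, at position -227 from the start, and 1 E-box. The Pi16 region held 1 CCAAT box and 1 E-box. Among all 32851 such regions in the table, 72.3% held an E-box, 37.4% a CCAAT box, 35.7% a GC box and 13.6% a TATA box. These matches describe letters in the window.

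Cd24a was highest in ES adipocytes and eWAT and lowest in 3T3-L1 adipocytes. This glycoprotein marks an early progenitor in mouse fat that can rebuild a depot. It read 8.51, 9.05 and 8.53 in ES, 7.02, 6.94 and 6.83 in PMEF, 5.60, 5.44 and 5.82 in 3T3-L1, and 8.11, 8.94 and 8.79 in eWAT arrays. ES and eWAT arrays overlapped, PMEF arrays lay below both and 3T3-L1 arrays below all. ES adipocytes were at 0.08 ± 0.19 against eWAT (limma adjusted p = 0.763), with a 95% interval from -0.34 to 0.50. The sign turned to -0.09 without ES array 2 and to -0.17 without eWAT array 1, neither of which passed. The 3T3-L1 mean was 0.46 above the background level, so sizes against it are rough. Cd24a fell by 1.68 ± 0.19 in PMEF and by 3.00 ± 0.19 in 3T3-L1 against eWAT (limma adjusted p = 7.69e-06 and 1.62e-08). Between models it was 3.08 ± 0.19 higher in ES and 1.31 ± 0.19 higher in PMEF than in 3T3-L1, and 1.77 ± 0.19 higher in ES than in PMEF adipocytes, all past the test.

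Markers of other Cd24a-bearing cells moved as follows. Of 7 epithelial genes, 3 rose in ES adipocytes against eWAT, led by Cdh1 (E-cadherin), which averaged 6.31 in ES and 5.52 in eWAT, while the defining gene Epcam was under background in both at 4.89 and 4.26. The summed epithelial level was 8.12 to 8.27 in ES, 7.93 to 8.12 in PMEF, 7.93 to 7.995 in 3T3-L1 and 7.87 to 7.89 in eWAT. Of 7 neural genes, 6 rose in ES adipocytes, among them Stmn2 by 1.53 ± 0.21, and their summed level was 9.41, 10.00 and 9.53 in ES arrays 1 to 3. The ES array with the highest Cd24a, array 2, also had the highest neural, epithelial and pluripotency sums. Endothelial (9.41), mural (11.74), myeloid (9.44) and interstitial progenitor (12.06) sums were highest there too, as were Pdgfra, Pdgfrb, Cd34, Thy1 and Zfp423. Dpp4, Pi16 and the adipocyte, lymphocyte, mesothelial and fibroblast matrix sums were not. A high array 2 was thus not particular to Cd24a or to these cell types. Of 7 pluripotency genes, 5 rose in ES adipocytes, with Sox2 at 5.63 in ES against 4.01 in eWAT, under background there. Above background were 5 of the 7 in ES and 1 in eWAT. Their median was 0.41, and 0.07 with means under background set to that level. Neural progenitors also make Cd24a, and the part of these cells in the ES level was not tested.

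Summed RNA of white blood cell genes differed between the eWAT arrays. The sum of 10 myeloid genes was 12.48, 13.11 and 13.42 and that of 9 lymphocyte genes was 8.92, 9.17 and 9.14 in eWAT arrays 1 to 3. Dpp4 was lowest in array 1 and highest in array 3, as the myeloid sum was, as was Pi16, and Cd24a, Pdgfra and Cd34 were also lowest in array 1. The other 3 markers did not share this, as Pdgfrb and Zfp423 were highest in array 1 and Thy1 was lowest in array 3. The order of the myeloid sum was also that of the interstitial progenitor sum (12.36, 12.61 and 12.73) and the mesothelial sum (8.72, 8.89 and 8.94). The sum of endothelial genes ran the other way, at 13.05, 12.85 and 12.77. The committed preadipocyte sum (12.79, 12.73 and 12.66) and the mural sum (12.80, 12.722 and 12.720) fell in the same way. In the cultures the myeloid sum was 9.34 to 9.44 in ES, 9.48 to 9.70 in PMEF and 10.59 to 10.80 in 3T3-L1, where 3, 5 and 3 of the 10 genes lay above background. In 3T3-L1, 1 gene carried most of that sum, as Cd68, a lysosomal protein of macrophages, averaged 10.42 and made up 83.4% of the summed intensity, while Lyz2 was under background at 5.14. Of the 9 lymphocyte genes, 3 lay above background in each culture and 5 in eWAT. The part of these cells in the marker levels was not tested.

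Zfp423, the zinc finger factor that commits mouse cells to the preadipocyte fate and favours Pparg expression, varied least, with 0.66 log2 units between its highest and lowest group means. It read 7.59, 7.75 and 7.40 in ES, 7.68, 7.71 and 7.95 in PMEF, 7.53, 7.54 and 7.34 in 3T3-L1, and 8.20, 8.03 and 8.15 in eWAT arrays. Every culture array lay below every eWAT array. It fell by 0.55 ± 0.10 in ES, by 0.35 ± 0.10 in PMEF and by 0.66 ± 0.10 in 3T3-L1 against eWAT (limma adjusted p = 0.000581, 0.0142 and 9.7e-05). The PMEF call was lost without PMEF array 1 (adjusted p = 0.053) or 2 (0.0541).

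Among the models Zfp423 differed little. It was 0.31 ± 0.10 higher in PMEF than in 3T3-L1 (limma adjusted p = 0.0235), a call lost without 3T3-L1 array 3 (0.102), without PMEF array 3 (0.112) and with arrays centred on their medians (0.09, adjusted p = 0.45). ES was at 0.11 ± 0.10 against 3T3-L1 (0.442, 95% interval from -0.11 to 0.34) and at -0.20 ± 0.10 against PMEF (0.149, 95% interval from -0.42 to 0.03). With arrays centred on the reference genes, ES passed against 3T3-L1 (0.56, adjusted p = 0.000154), and with arrays centred on their medians its sign turned to -0.09.

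Other regulators of commitment moved both ways. Of 16 measured genes, 6 rose and 7 fell in ES, 8 rose and 6 fell in PMEF, and 4 rose and 8 fell in 3T3-L1 adipocytes against eWAT. Their medians were -0.02, 0.31 and -0.20, and the PMEF median was 0.10 with means under background set to that level. The ES median turned to 0.06 with arrays centred on the reference genes, and the 3T3-L1 median to 0.01 with arrays centred on their medians. Ebf2, a regulator that marks committed precursors, fell by 2.45 ± 0.10, 2.92 ± 0.10 and 2.72 ± 0.10. Bmp4, a growth factor that drives mesenchymal cells toward fat, averaged 8.99 in ES and 8.37 in PMEF, against 4.98 in 3T3-L1, which was under background there. Zfp521, the relative and antagonist of Zfp423, averaged 7.06 in ES and 9.34 in PMEF adipocytes, a difference of -2.29 ± 0.08. Prrx1, a factor of limb and fibroblast mesenchyme, rose by 1.13 ± 0.10 in ES and by 2.07 ± 0.10 in PMEF adipocytes against eWAT.

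**Figure D2:**
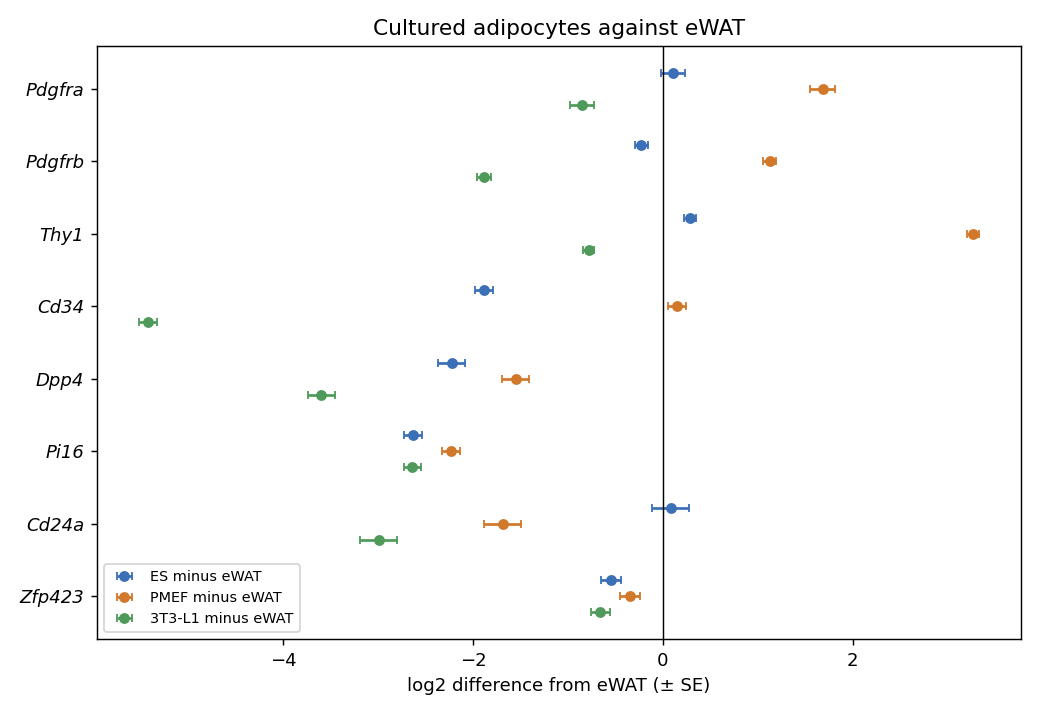
Log2 difference from eWAT (horizontal axis, points with SE bars, n = 3 per group) of the 8 markers in ES, PMEF and 3T3-L1 adipocytes. The 3T3-L1 points are all left of 0, with Zfp423 nearest to it at -0.66, and Cd34 and Dpp4, under background in 3T3-L1, are drawn at their measured differences and count as bounds. The PMEF points of Pdgfra, Pdgfrb and Thy1 are right of it.

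Counted over the set, in ES adipocytes 6 of 8 markers were called against eWAT, 1 higher and 5 lower, where 49.7% of all genes were called, 28.8% higher and 20.9% lower. The arrays of both groups did not overlap for 6 markers and for 57.9% of all genes. In PMEF adipocytes 3 rose and 4 fell, where 46.3% of all genes were called, 24.7% higher and 21.6% lower, and 7 markers and 51.9% of all genes did not overlap. In 3T3-L1 adipocytes 8 of 8 fell, where 53.3% of all genes were called, 30.8% higher and 22.5% lower, and 8 markers and 59.1% of all genes did not overlap. The median over the markers was -0.39 in ES, -0.10 in PMEF and -2.26 in 3T3-L1, against 0.04, 0.05 and 0.05 over all genes. These 3 comparisons share the eWAT arrays.

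The models were also set against each other. PMEF adipocytes had 8 of 8 markers higher than 3T3-L1, where 50.1% of all genes were called, 22.3% higher and 27.8% lower, with a median of 2.29 over the markers, or 1.92 with Cd34 and Dpp4 at their bounds, and 0.01 over all genes. No marker's arrays overlapped there, and 56.5% of all genes shared that. ES adipocytes had 6 of 8 higher than 3T3-L1 and none lower, where 43.4% of all genes were called, 20.4% higher and 23% lower, with medians of 1.22, or 1.01 with those bounds, and -0.02. Arrays did not overlap for 6 markers and 55.4% of all genes. ES adipocytes had 1 higher and 6 lower than PMEF, where 42.6% of all genes were called, 23.6% higher and 19% lower, with medians of -1.01 and -0.02. Arrays did not overlap for 7 markers and 52.4% of all genes. Cd24a was the marker higher in ES. The mean of each of the 8 markers was lowest in 3T3-L1, though for Pi16 and Zfp423 it did not differ from ES beyond the test.

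The 3T3-L1 arrays depend on scaling more than the others. Centring on array medians moved the median of all genes in 3T3-L1 against eWAT to 0.26, and centring on 7 reference genes moved it to -0.33. Higher calls were 57.8% of all calls in that comparison as deposited, 77.1% on medians and 20.2% on the reference genes. For PMEF against 3T3-L1 the share was 44.6%, 23.6% and 82.1%, with medians of 0.01, -0.21 and 0.37. For ES against 3T3-L1 it was 47.1%, 21.7% and 90.9%, with medians of -0.02, -0.23 and 0.42. For ES against PMEF it was 55.4%, 57.6% and 67%. For ES against eWAT the median of all genes was 0.11 on the reference genes. All 8 markers were still called lower in 3T3-L1 than in eWAT under each of these and under quantile normalization. Other marker counts moved. Markers called higher in PMEF than in 3T3-L1 numbered 7 under quantile normalization and 6 on medians. In ES against 3T3-L1, 8 were called higher on the reference genes. In ES against eWAT, 1 was called higher and 4 lower on the reference genes.

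Genes whose pattern over the 12 arrays lay nearest to each marker were found after each gene was centred on its own mean. The measure was the root mean square difference, which the group means dominate. Nearest to Pdgfra were Col1a1 at 0.17 and P3h3 at 0.19, a fibrillar collagen and a prolyl hydroxylase of collagen. Nearest to Pdgfrb were Aldh1a1 at 0.14, an enzyme that makes retinoic acid, and Col3a1 at 0.16. Thy1 was nearest to C1qtnf2 at 0.21, which was under background in 3T3-L1 at 4.89, and to Lrrc17 at 0.22. Cd34 was nearest to Smpdl3a at 0.28, which averaged 8.26, 10.19, 4.78 and 10.57 in ES, PMEF, 3T3-L1 and eWAT and was under background in 3T3-L1, and to the matrix proteoglycan Podn at 0.30.

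The 2 interstitial markers had different neighbours. Dpp4 was nearest to Acss3 at 0.22 and the lipid transporter Abca9 at 0.24. Pi16 was nearest to Rasip1, a gene of vessel lining, and Dock8, a gene of white blood cells, both at 0.13. Those distances rest largely on values near the floor, since Dock8 was under background in all 3 cultures and Rasip1 and Pi16 were close to it. Cd24a was nearest to the interferon-induced Rsad2 at 0.24, which was under background in 3T3-L1 at 5.13, and to Ccdc69 at 0.27. Among the markers themselves Pdgfra and Pdgfrb were the closest pair at 0.41, with Pearson's r of 0.93, followed by Dpp4 and Pi16 at 0.64, with r of 0.87. Next came Pdgfra and Thy1 at 0.67, whose r of 0.97 was the highest of all marker pairs. The Dpp4 and Pi16 distance includes culture values near the floor. These correlations run over 12 arrays in 4 groups and describe the group pattern.

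**Figure D3:**
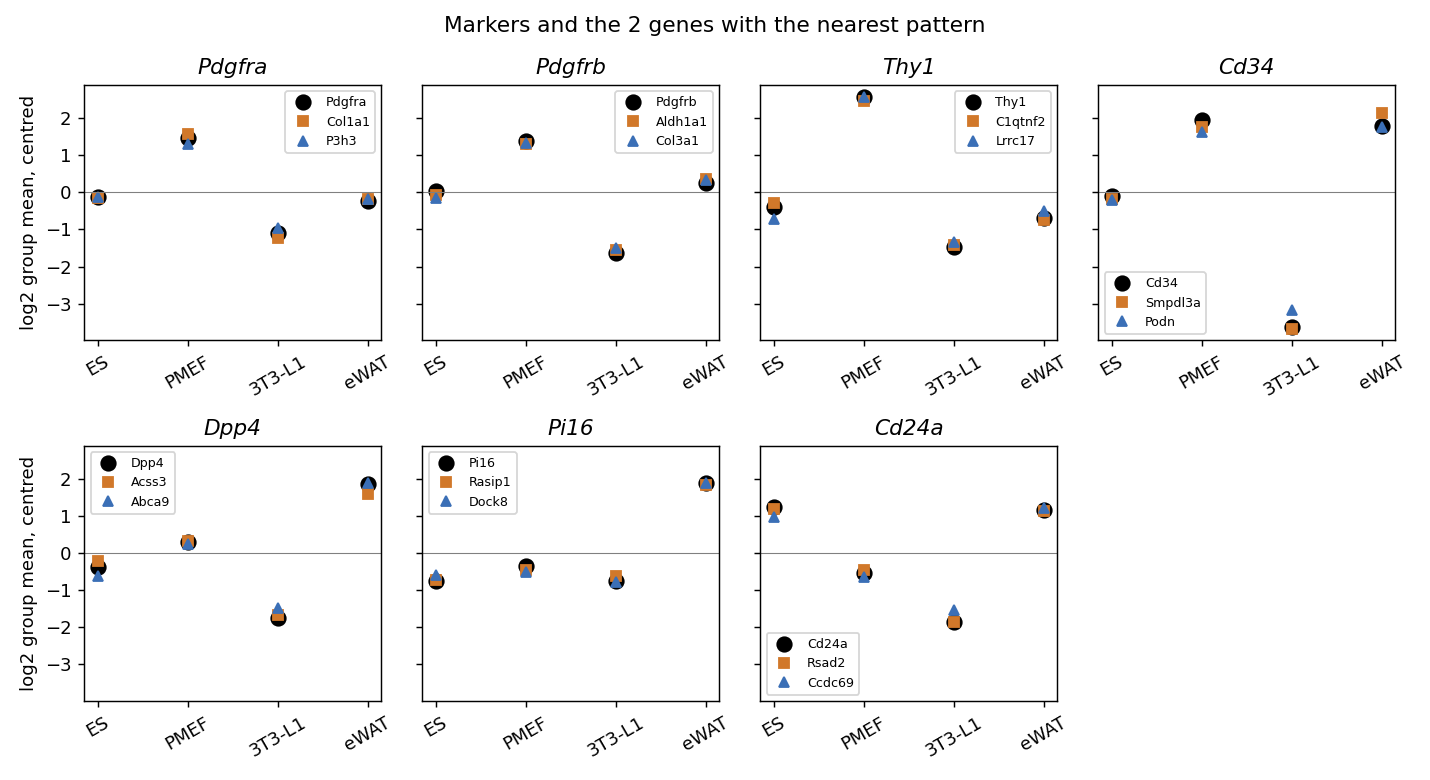
Group means on the log2 scale, centred on the mean of the 4 groups (vertical axis), for 7 markers (black circles) and the 2 genes nearest to each (orange squares, blue triangles). Pdgfra and Col1a1 share a peak in PMEF, while Pi16, Rasip1 and Dock8 are high in eWAT alone.

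Genes of later and neighbouring stromal states showed how far the pattern reached. Of 9 committed preadipocyte genes, 4 rose and 5 fell in ES, 5 rose and 3 fell in PMEF, and 2 rose and 6 fell in 3T3-L1 adipocytes against eWAT, with medians of -0.70, 0.40 and -1.73. Dlk1, the secreted inhibitor of differentiation known as Pref-1, rose by 3.70 ± 0.11, 4.56 ± 0.11 and 2.45 ± 0.11. Icam1, the adhesion molecule of committed preadipocytes, averaged 7.33 in ES, 9.14 in PMEF, 6.30 in 3T3-L1 and 8.03 in eWAT, and rose by 1.11 ± 0.14 in PMEF adipocytes. Hsd11b1, which activates glucocorticoids, averaged 7.17 in ES, 5.85 in PMEF, 9.97 in 3T3-L1 and 10.81 in eWAT. Col15a1, a basement membrane collagen, was 3.67 ± 0.16 higher in ES and 2.98 ± 0.16 higher in PMEF than in 3T3-L1 adipocytes.

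Genes of CD142+ stromal cells, a population that restrains fat formation in mouse, numbered 6. Against eWAT 2 rose and 3 fell in ES, 4 rose and 2 fell in PMEF, and 5 fell in 3T3-L1 adipocytes, with medians of -0.25, 0.79 and -2.33. F3, which encodes CD142 itself, rose by 0.75 ± 0.08 in ES. Fmo2, a monooxygenase, averaged 8.46 in ES, 10.35 in PMEF, 5.39 in 3T3-L1 and 8.39 in eWAT. The homeobox gene Meox2 averaged 6.18, 8.40, 4.13 and 8.87 in the same order and was under background in 3T3-L1.

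Of 11 further mesenchymal surface antigens, 4 rose and 5 fell in ES, 6 rose and 4 fell in PMEF, and 3 rose and 6 fell in 3T3-L1 adipocytes against eWAT. Their medians were -0.02, 0.41 and -0.42, the last of which was -0.12 with means under background set to that level, and the ES median turned to 0.06 with arrays centred on the reference genes. Nt5e, the ectonucleotidase CD73, averaged 8.55 in ES, 6.51 in PMEF, 5.14 in 3T3-L1, under background there, and 6.62 in eWAT. Eng, a TGF-beta coreceptor of mesenchyme and vessel lining, fell by 3.69 ± 0.12 in ES, 1.96 ± 0.12 in PMEF and 4.74 ± 0.12 in 3T3-L1. Vcam1 rose by 1.78 ± 0.21 in PMEF adipocytes.

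Fibroblast matrix genes were mostly higher in PMEF adipocytes and mostly lower in 3T3-L1. Of 9 genes, 1 rose and 5 fell in ES, 8 rose and none fell in PMEF, and 1 rose and 6 fell in 3T3-L1 adipocytes against eWAT, with medians of -0.24, 1.77 and -1.04. S100a4 rose by 2.78 ± 0.14 and Fbln2 by 2.51 ± 0.08 in PMEF adipocytes. Lum, a collagen-binding proteoglycan, averaged 8.80 in ES, 11.40 in PMEF, 5.52 in 3T3-L1 and 9.39 in eWAT.

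Mural genes bear on Pdgfrb, which pericytes also make. Of 11 such genes, 1 rose and 9 fell in ES, 2 rose and 9 fell in PMEF, and 1 rose and 10 fell in 3T3-L1 adipocytes against eWAT. The pericyte gene Rgs5 averaged 4.84 in ES, 5.96 in PMEF, 4.73 in 3T3-L1 and 10.00 in eWAT, and was called lower in each model and under background in ES and 3T3-L1. The summed mural level was 11.63 to 11.74 in ES, 12.16 to 12.36 in PMEF, 10.34 to 10.51 in 3T3-L1 and 12.72 to 12.80 in eWAT. Acta2 averaged 10.20 in ES, 11.75 in PMEF, 8.88 in 3T3-L1 and 10.92 in eWAT. Ndufa4l2 rose by 3.28 ± 0.11 in ES, to 10.12 against 6.84 in eWAT. The ES and PMEF sums thus lean on a few bright genes. The order of the sums over the groups was that of Rgs5, but their gaps from eWAT were far smaller. Above background were 9, 10, 8 and 10 of these genes. Mesothelial genes, 9 in number, rose in 9 of 9 cases in ES and in PMEF adipocytes, and 3 rose and 2 fell in 3T3-L1, where none rose and 5 fell with arrays centred on the reference genes. Their summed level was 10.46 to 10.49 in ES, 10.996 to 11.14 in PMEF, 8.62 to 8.67 in 3T3-L1 and 8.72 to 8.94 in eWAT, and Upk1b averaged 7.60 in ES and 8.79 in PMEF, against 4.66 in eWAT, which is under background. The part of mural and mesothelial cells in the marker levels was not tested.

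**Figure D4:**
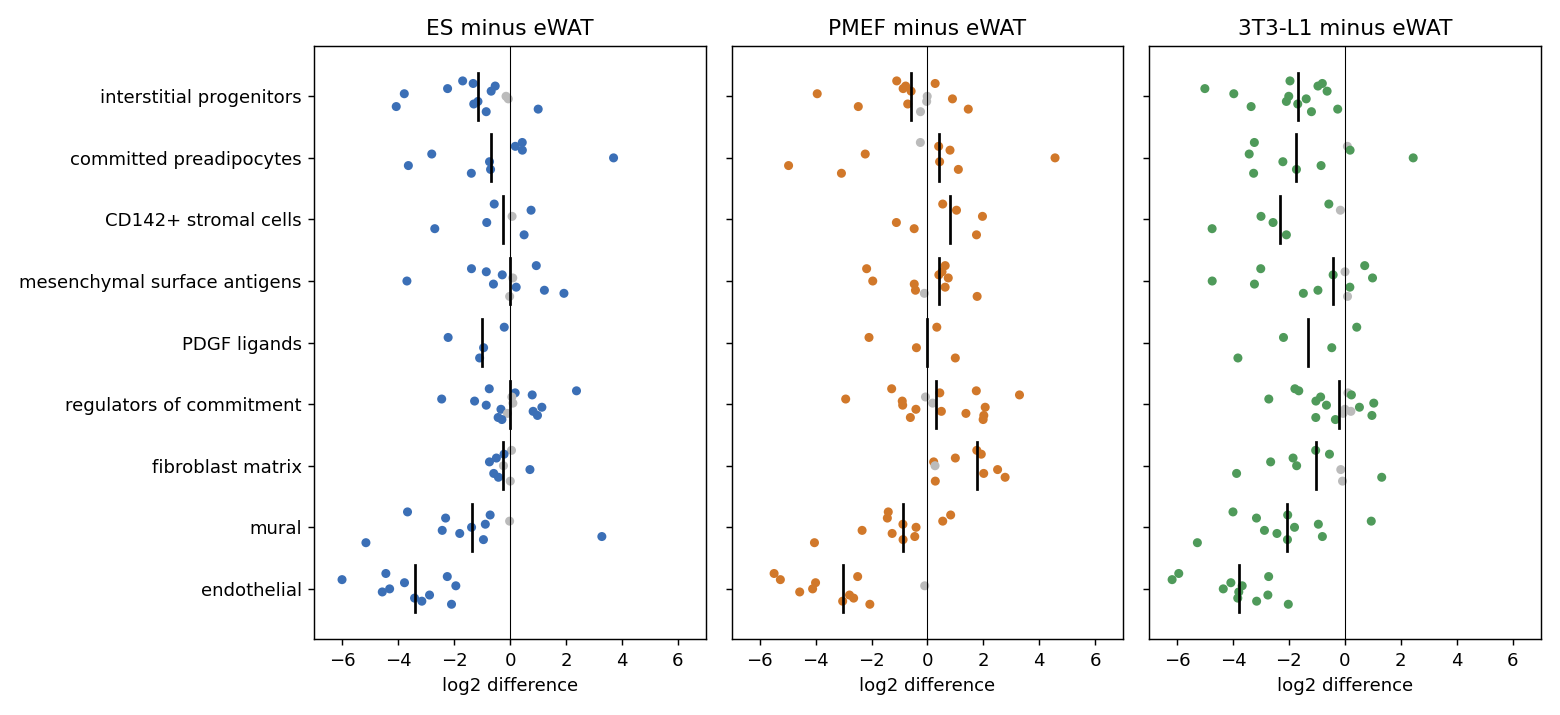
Log2 difference from eWAT (horizontal axis) of each measured gene in 9 lists, in ES, PMEF and 3T3-L1 adipocytes, with called genes in colour, others in grey and a black bar at the list's median. The fibroblast matrix median is 1.77 in PMEF and -1.04 in 3T3-L1, while the endothelial median is below -3 in each model.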

How the data were processed

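The deposited table holds log2 intensities of 35556 probe sets on 12 arrays, which the authors had normalized between arrays. The log base was inferred from the range of the values. Per the labels' protocols, RNA was extracted with TRIzol and labelled from 300 ng. How they normalized is not given in the sources used here. Values were used as deposited. Of the probe sets, 21789 carried 1 gene symbol in the platform annotation, and symbols were updated by Entrez ID through RefSeq (21698 found). The 1621 with several symbols and the 12146 with none were left out. The brightest probe set stood for each of the 999 genes with several. No detection calls were used, no dim gene was dropped, and precision is limited by how many arrays there are.

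Group means of the 4 groups were modelled over all arrays and 19938 genes with limma 3.58.1 in R 4.3.3 (8 residual and 4.88 prior degrees of freedom), and p-values were adjusted over all genes. Words such as rose and fell are used of differences past that test. On simulated data for PMEF against eWAT over 19938 genes, the fit called 48 of 50 genes changed by 1 log2 unit. It called 33 of 50 changed by 0.5 and 3 of 50 changed by 0.25, with 3 false calls. Only 50 genes were changed at each size there, while 9225 genes were called in this comparison in the deposited data. Whether these rates hold for the deposited data was not tested. The replicate numbers did not pair the arrays. The text names all markers and the 2 nearest genes to each marker that spans at least 2 log2 units. List genes were picked as the called ones with the largest rise or fall (up to 2 each per list and comparison). Only some of the list genes so picked are named. Levels of a list's defining gene (Epcam) are given with its list, and genes named by the rule in 1 comparison are also given in others. The markers and lists were chosen with earlier results of these data known. Alternatives were quantile normalization, centring on array medians or 7 reference genes, a filter that drops the dimmest 33.3%, other treatment of probe sets, 2-group fits, a replicate block, a trended variance and leaving out each array.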

Additional observations from a re-analysis of the deposited data

Results flagged for a closer look

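Some markers differed from eWAT in opposite directions in 2 models, with both differences called and the direct difference between the models past the limma test as well. Pdgfra was higher in PMEF and lower in 3T3-L1 adipocytes than in eWAT, and PMEF stood 2.53 above 3T3-L1 (log2, adjusted p = 1.37e-09). Pdgfrb did the same, with PMEF 3.01 above 3T3-L1 (adjusted p = 7.16e-13), and it also set ES, slightly below eWAT, against PMEF at -1.35 (adjusted p = 5.79e-09). The ES call against eWAT in that pair was lost without ES array 1 or 3. Thy1 was higher in PMEF and in ES but lower in 3T3-L1 adipocytes than in eWAT, with differences from 3T3-L1 of 4.05 (adjusted p = 1.83e-14) and 1.07 (adjusted p = 9.75e-09).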

How the results depend on the processing

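Of 1008 marker values under 21 alternatives, 987 kept their direction and call, and 872 of the 882 that were called as deposited stayed called in the same direction. The other calls that were lost are given beside their markers. The values that changed sign were uncalled before and after. They were Pi16 in ES against 3T3-L1 (-0.144 with quantile normalization, -0.202 on array medians, -0.010 and -0.015 without 3T3-L1 array 1 or 3, -0.066 without ES array 3), Zfp423 in ES against 3T3-L1 (-0.093 on array medians), Cd24a in ES against eWAT (-0.093 without ES array 2, -0.169 without eWAT array 1) and Pdgfra in ES against eWAT (-0.017 without eWAT array 1). Over the settings that leave out 1 array, these differences ran from -0.066 to 0.051 for Pi16, from -0.169 to 0.246 for Cd24a and from -0.017 to 0.172 for Pdgfra. On the reference genes, Pi16 and Zfp423 in ES against 3T3-L1 passed as higher. The cause was not tested. Centring on the reference genes moved the count of all genes called to 15545 from 9985 in PMEF against 3T3-L1, and to 16054 from 8651 in ES against 3T3-L1. Markers called stayed within 1.5 times in each comparison and setting. Same-numbered arrays deviated together at r of -0.14 to 0.11, so the numbers share no more than a name. With the replicate number as a block, 9009 genes were called in PMEF against eWAT (9225 without it), 10519 in 3T3-L1 against eWAT (10628) and 9739 in ES against eWAT (9911), and the block changed no marker's call. Signal over background limits Cd34, Dpp4 and Cd24a in 3T3-L1, Dpp4 in ES and Pi16 in all cultures.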
